A study of Mus musculus with 16 samples.

Results

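Fibroblast growth factors and their receptors were followed in the distal stump of the crushed mouse sciatic nerve through 9 genes: the 6 ligands Fgf1, Fgf2, Fgf5, Fgf7, Fgf10 and Fgf18 and the 3 receptors Fgfr1, Fgfr2 and Fgfr3. They were 9 of 18193 genes on an Affymetrix mouse whole-genome array. Each gene was read from a probe set assigned to its symbol alone, and where a gene had several, from the one with the highest mean over all 16 arrays. The choice of probe set used the mean level and not the difference between groups.

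RNA came from 2 strains, wild-type C57BL/6 mice and C57BL/6 OlaHsd-Wlds mice carrying the WldS mutation (WldS here), all aged 8 to 12 weeks. The WldS mutation is known for slowing the breakdown of axons cut off from the cell body. Nerves were injured on the left side by a small crush in the middle of the thigh, and 3, 7 or 14 days later a stretch of 4 mm was taken, which began 1 mm and ended 5 mm beyond the lesion. Day 0 nerve came from naive mice, so the crush and the surgery itself cannot be told apart. Nerve pieces of each group were pooled before RNA extraction, and each of the 8 groups had 2 arrays called biological replicates. The number of mice behind each pool was not given, so p-values measure the spread between these pools. In such bulk tissue fewer cells of a type and less RNA per cell cannot be told apart.

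Fibroblast growth factors are secreted or released proteins that bind tyrosine kinase receptors together with heparan sulfate. Binding pairs the receptors, which pass the signal through adaptor proteins to the RAS and MAP kinase cascade and on to transcription factors, while Sprouty, Spred and dual-specificity phosphatase proteins damp it. In peripheral nerve the family is known for acting on Schwann cells, fibroblasts and growing axons, and Fgf1 is known as an abundant cytosolic factor of neurons that lacks a classical signal peptide.

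Array medians ran from 6.42 to 6.49 on the log2 scale, and replicate arrays correlated at 0.989 to 0.998 over all genes. The 3′ to 5′ index, the mean log2 excess of 3′ over 5′ signal of the actin and Gapdh control probe sets, rises when RNA is degraded. It was highest on the first uninjured WldS array (3.81), followed by the second WldS array of day 14 (3.23), and 1.63 to 2.46 on the other 14 arrays. For the 8 tested members, calls that ended without these 2 high-index arrays are given with and without them. Schwann cell markers were bright in every group: Sox10 averaged 12.12 in uninjured C57BL/6 nerve and 12.16 in uninjured WldS nerve. Summed skeletal muscle marker signal, on the linear scale, was 360 to 729.6 in uninjured WldS nerve and 299.4 to 374.7 in uninjured C57BL/6 nerve, and 201 to 297.1 in the injured groups.

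A gene was tested only if its mean log2 signal reached 5.37, the 30th percentile of probe sets, which left 14545 genes and 8 of the 9 members. Fgf2 lay below it. A gene was called changed at a Benjamini-Hochberg adjusted p below 0.05 from limma over all tested genes. At day 0, 0 of the 8 tested members differed between the strains by this rule, against 0.227% of all tested genes. At an unadjusted p below 0.05, 3 did (Fgf1, Fgf7 and Fgfr1, all lower in WldS). The share of all genes at that threshold was not computed, so this count is no result about the members. The direction of Fgf1 was not shared by its other probe sets, at 0.17 and 0.64. Those of Fgf7 and Fgfr1 gave -0.36, and -0.08 and -0.84.

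Against day 0, 2 of 8 members were called in C57BL/6 at day 3 (41% of all tested genes), 4 at day 7 (36.1%) and 5 at day 14 (33.7%). In WldS, 2 were called at day 3 (36% of all genes), 4 at day 7 (35.2%) and 1 at day 14 (21.3%). These counts lie on either side of the shares for all genes, so they are no result about the members as a group. The difference between the strains in the change from day 0, tested as an interaction, was called for 2 of 8 members at day 3 (6.16% of all genes), 3 at day 7 (4.11%) and 1 at day 14 (1.58%). Fgf1, Fgf5 and Fgf7 made up those calls.

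Fgf5 is a secreted factor known as the signal that ends the growth phase of hair. It was near the low end of the tested range in uninjured nerve and was the member with the steepest rise, in C57BL/6 nerve. The 250 bases before its RefSeq start, and before those of Fgf7 and Fgf18, the other ligands with a RefSeq entry that were called in both strains, are given for comparison. They come from GRCm38.p6, 5′ to 3′ on the gene's strand, at chr5:98253934-98254183 on the plus strand for Fgf5, chr2:126034408-126034657 on the plus strand for Fgf7 and chr11:33147401-33147650 on the minus strand for Fgf18. Capitals mark a match to the GC box, a binding sequence of Sp1-type factors.
Fgf5: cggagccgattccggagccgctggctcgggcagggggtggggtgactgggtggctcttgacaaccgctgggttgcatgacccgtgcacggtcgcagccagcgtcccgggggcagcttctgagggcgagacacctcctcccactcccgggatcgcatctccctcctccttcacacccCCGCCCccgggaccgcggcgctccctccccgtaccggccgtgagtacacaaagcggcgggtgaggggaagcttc
Fgf7: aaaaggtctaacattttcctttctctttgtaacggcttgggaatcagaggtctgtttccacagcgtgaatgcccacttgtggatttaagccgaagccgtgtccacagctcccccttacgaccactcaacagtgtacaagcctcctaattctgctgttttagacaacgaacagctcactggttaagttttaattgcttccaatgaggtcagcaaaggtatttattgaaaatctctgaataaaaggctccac
Fgf18: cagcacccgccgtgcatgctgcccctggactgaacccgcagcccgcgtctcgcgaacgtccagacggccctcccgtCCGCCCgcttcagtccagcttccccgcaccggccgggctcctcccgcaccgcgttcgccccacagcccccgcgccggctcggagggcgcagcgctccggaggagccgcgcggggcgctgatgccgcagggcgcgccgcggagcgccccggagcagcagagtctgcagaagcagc
The windows of Fgf5 and Fgf18 held 70.8% and 77.2% G and C, and that of Fgf7 43.6%. On both strands 4 motifs were searched, none of which contains another: the TATA box TATAAA, the GC box GGGCGG, the AP-1 site TGANTCA and TGACG, the core of cyclic AMP response elements. The GC box was found once in Fgf5, on the minus strand 74 bases before the start, and once in Fgf18, on the minus strand 174 bases before it. Of 32851 windows of this length before RefSeq starts, 32.7% held GGGCGG, 12.4% TATAAA, 6.7% TGANTCA and 17.8% TGACG. No other match lay in the windows of Fgf5, Fgf7 and Fgf18. Fgf1 and Fgfr1 had no entry.

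In C57BL/6 nerve the Fgf5 probe set 1438883_at read 6.00 and 5.95 at day 0, 9.10 and 9.25 at day 3, 8.58 and 8.89 at day 7, and 9.09 and 9.39 at day 14. In WldS nerve it read 6.00 and 6.24 at day 0, 5.87 and 5.95 at day 3, 6.38 and 6.50 at day 7, and 6.17 and 6.43 at day 14. All 6 injured C57BL/6 arrays lay above every other array, and the highest injured WldS array read 6.50. The rise in C57BL/6 was 3.20 ± 0.15 (log2 difference ± SE) at day 3, a 9.18-fold change (limma, adjusted p = 9.75e-10). It was 2.76 ± 0.15 at day 7 and 3.26 ± 0.15 at day 14. In WldS the differences from day 0 were -0.21, 0.32 and 0.18, with limma adjusted p of 0.286, 0.105 and 0.430. Their 95% intervals reached at most 0.63, which lies below each of the 3 differences in C57BL/6. The interactions were -3.41 ± 0.21, -2.44 ± 0.21 and -3.08 ± 0.21 at days 3, 7 and 14, with limma adjusted p of 2.13e-07, 9.02e-06 and 4.37e-06. At day 14, when 1.58% of tested genes were called for the interaction, Fgf5 was the one member called.

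Between neighbouring days Fgf5 in C57BL/6 was 0.44 lower at day 7 than at day 3 (limma, adjusted p = 0.0456) and 0.51 higher at day 14 than at day 7 (adjusted p = 0.0637). In WldS it was 0.53 higher at day 7 than at day 3 (adjusted p = 0.0438). Both calls between day 3 and day 7 were lost on leaving out any of 8 single arrays, those of the compared groups among them, with values from -0.60 to -0.29 in C57BL/6 and 0.47 to 0.59 in WldS and adjusted p up to 0.343 and 0.293. The second Fgf5 probe set, 1426186_a_at, lay below the dim filter in every group. It differed from day 0 by 0.08, 0.04 and 0.08 in C57BL/6 and by -0.15, -0.21 and -0.06 in WldS. The rise in C57BL/6 therefore rests on 1 of 2 probe sets, and averaging both gave 1.64, 1.40 and 1.67 at days 3, 7 and 14, all called.

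Marker sums of other cell types are given here beside Fgf5. Summed macrophage marker signal (7 genes) was 11050 to 11860 in uninjured C57BL/6 nerve and 24180 to 24470 at day 3, and 10050 to 10230 and 27290 to 31020 in WldS. Proliferation markers (4 of 5 measured) summed to 250.5 to 275.8 at day 0 and 7119 to 7277 at day 3 in C57BL/6, and to 253.5 to 264.1 and 4031 to 4303 in WldS. Both marker sums were higher at day 3 than at day 0 in both strains. Fgf5 passed the test in C57BL/6 alone, with the interaction given above. At day 14 in C57BL/6 the macrophage and proliferation sums were 16630 to 18150 and 2939 to 3018, below day 3, and Fgf5 read 9.09 and 9.39. Gene by gene the macrophage markers differed. Against day 0 in C57BL/6, 6 of the 7 were called higher at day 3, and 4 higher and 1 lower at day 14. Cd68 averaged 11.22 at day 3 and 11.23 at day 14, and Cd163 averaged 9.10 and 6.83. The part of cell makeup in the Fgf5 rise was not tested.

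**Figure D1:**
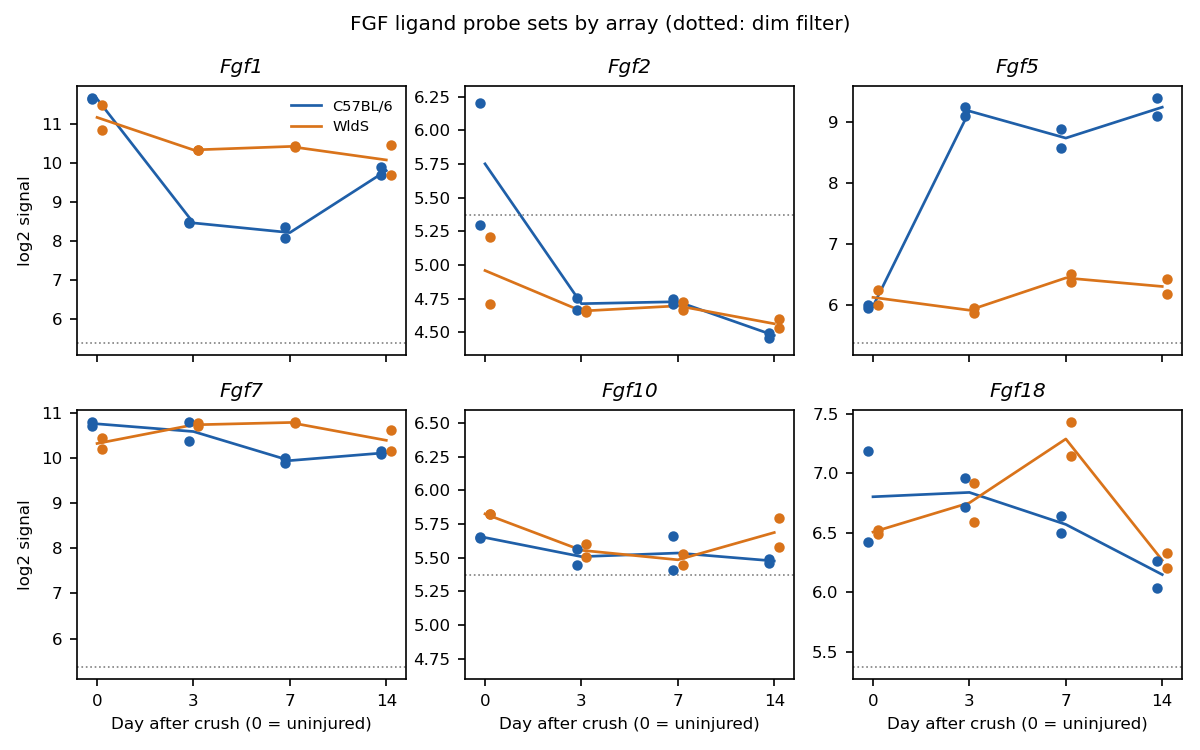
Log2 signal of the 6 ligand probe sets (y axes, 1 scale per panel) against days after crush, with C57BL/6 arrays in blue and WldS arrays in orange; points are single arrays, lines join group means of 2 arrays and the dotted line is the dim filter. Fgf5 in injured C57BL/6 nerve sits at 8.58 to 9.39 against 5.87 to 6.50 in injured WldS nerve, while Fgf1 falls to 8.07 to 8.48 at days 3 and 7 in C57BL/6 and reads 10.34 to 10.45 in WldS.

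Fgf1, also called acidic FGF and able to bind all FGF receptors, moved the opposite way. Its probe set 1423136_at read 11.67 and 11.64 in uninjured C57BL/6 nerve, 8.45 and 8.48 at day 3, 8.36 and 8.07 at day 7, and 9.70 and 9.91 at day 14. In WldS it read 10.85 and 11.51 at day 0, 10.34 and 10.34 at day 3, 10.45 and 10.41 at day 7, and 10.46 and 9.71 at day 14. The C57BL/6 arrays of days 3 and 7 were the 4 lowest of all, and the strains overlapped at day 14. Fgf1 fell by 3.19 on the log2 scale in C57BL/6 at day 3, to a level 9.14-fold lower (SE 0.22, limma adjusted p = 5.35e-08), and by 3.44 at day 7. By day 14 it had regained 1.59 ± 0.22 over day 7 (adjusted p = 0.000531; 1 of 8 members and 5.27% of all genes were called in that step) and differed from day 0 by -1.85.

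In WldS nerve Fgf1 fell less: by 0.84 at day 3, 0.75 at day 7 and 1.09 at day 14, with limma adjusted p of 0.00910, 0.0179 and 0.00297. The smaller fall was itself past the threshold at days 3 and 7, where the interactions were 2.36 ± 0.31 and 2.69 ± 0.31 (adjusted p = 0.000374 and 0.000184). At day 14 the interaction was 0.75 ± 0.31 (adjusted p = 0.351), with a 95% interval from 0.08 to 1.43. The WldS calls at days 3 and 7 rest on uninjured WldS replicate 2: without it the differences were -0.51 and -0.42 (adjusted p = 0.100 and 0.173). They were also lost without WldS day 3 replicate 1 (-0.84, adjusted p = 0.0503) and without either day 7 array (-0.77 and -0.72, adjusted p = 0.0564 and 0.0687). Fitted with the compared groups alone, the WldS calls at days 7 and 14 ended (adjusted p = 0.0811 and 0.103).

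The order of Fgf1 group means ran from 11.66 (C57BL/6 day 0) through 11.18, 10.43, 10.34 and 10.08 (WldS days 0, 7, 3 and 14) and 9.81 (C57BL/6 day 14) to 8.46 and 8.22 (C57BL/6 days 3 and 7). Neighbours that did not pass the test were both day 0 groups, WldS days 7 and 3, day 14 of both strains and C57BL/6 days 3 and 7, while WldS days 3 and 14 and C57BL/6 days 14 and 3 were not compared. A second Fgf1 probe set, 1450869_at, gave differences from day 0 of -2.25, -2.48 and -1.69 in C57BL/6 and of -1.21, -1.11 and -1.26 in WldS, all called. Its interactions at days 3 and 7 were 1.04 and 1.37 (limma, adjusted p = 0.0121 and 0.00289). At day 14 WldS exceeded C57BL/6 by 0.60 with this probe set (limma, adjusted p = 0.0363). The day 14 interaction was 0.43 (adjusted p = 0.498). The third, 1441042_at, was dimmer, fell below the dim filter in C57BL/6 at days 3 and 7, and differed from day 0 by -1.01, -0.89 and -0.55 in C57BL/6 and -1.10, -1.18 and -1.13 in WldS. Readings below the filter may understate a fall, but the filter is a percentile and no detection limit was measured. With this probe set the WldS change minus the C57BL/6 change was -0.08, -0.29 and -0.58 at days 3, 7 and 14. The strain contrast was thus seen with the 2 brighter probe sets and not with the dimmest.

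Schwann cell and perineurial marker sums are given here beside Fgf1. The summed signal of 6 Schwann cell markers of 8 listed was 37200 to 37350 in uninjured C57BL/6 nerve, 15640 to 16310 at day 3, 20120 to 21400 at day 7 and 39550 to 40940 at day 14. The 5 perineurial markers summed to 15510 to 16680, 5479 to 5728, 8126 to 8543 and 6520 to 7501 on those days. In WldS the day 3 sums were 23220 to 23640 for Schwann cells and 10670 to 10720 for perineurial cells, both above C57BL/6. At day 14 the Schwann cell sum in C57BL/6 was above its day 0 range, and Fgf1 read 9.70 and 9.91 against 11.67 and 11.64 at day 0. That sum leans on its brightest gene, the myelin gene Mbp, with means of 14.28 at day 0 and 14.18 at day 14. Gene by gene in C57BL/6, 5 of the 6 were called lower at day 3, and 2 higher and 1 lower at day 14. S100b averaged 11.86 at day 0 and 10.82 at day 14, and Erbb3 10.77 and 12.43. The part of these cells in the fall was not tested.

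Fgf7, or keratinocyte growth factor, is made by fibroblasts and acts on Fgfr2 in epithelia. Its probe set 1438405_at read 10.72 and 10.80 in uninjured C57BL/6 nerve, 10.39 and 10.79 at day 3, 9.90 and 10.00 at day 7, and 10.09 and 10.16 at day 14. In WldS the readings were 10.21 and 10.44 at day 0, 10.78 and 10.70 at day 3, 10.80 and 10.78 at day 7, and 10.63 and 10.16 at day 14. C57BL/6 thus ended below its start at days 7 and 14, without overlap, whereas WldS at day 7 lay above its start. Fgf7 fell by 0.81 at day 7 in C57BL/6 (SE 0.16, limma adjusted p = 0.00108) and by 0.64 at day 14 (adjusted p = 0.00632). The step from day 3 to day 7 was -0.64 (adjusted p = 0.0115), a step in which 3 of 8 members and 20.3% of all genes were called. That step missed the threshold without C57BL/6 day 3 replicate 2 (-0.44), day 7 replicate 1 (-0.60) or day 7 replicate 2 (-0.69).

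In WldS at day 7 the difference of Fgf7 from day 0 was 0.47 ± 0.16 (limma, adjusted p = 0.0350). It was 0.35 without uninjured WldS replicate 1, the array with the highest 3′ to 5′ index, and also 0.35 without both high-index arrays, with adjusted p of 0.191 and 0.110. With the index as a covariate it was 0.11 (adjusted p = 0.670), and under cyclic loess and quantile normalization 0.29 and 0.31 (adjusted p = 0.130 and 0.101). It was also lost without either day 7 array, at 0.45 and 0.48. The interaction at day 7 was 1.28 ± 0.22 (adjusted p = 0.00510), and WldS exceeded C57BL/6 at that day by 0.84 ± 0.16 (adjusted p = 0.00418). In that comparison of strains, 3 of 8 members and 6.83% of all genes were called, and without C57BL/6 day 7 replicate 1 the Fgf7 difference was 0.80 (adjusted p = 0.0511). At days 3 and 14 the Fgf7 interactions were 0.58 and 0.71 (adjusted p = 0.163 and 0.176).

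The second Fgf7 probe set, 1422243_at, differed from day 0 by -0.33, -0.83 and -0.93 in C57BL/6 and by 0.30, -0.03 and -0.62 in WldS. The fall in C57BL/6 at days 7 and 14 was thus seen with both, the rise in WldS was not, and the day 7 interaction of the second was 0.80 (limma, adjusted p = 0.0579). With the second probe set the fall in WldS at day 14 was called as well (limma, adjusted p = 0.0105). Fibroblast markers (8 genes) summed to 55220 to 56140 at day 0 and to 62200 on each day 7 array in C57BL/6, and to 46470 to 54630 and 66570 to 67770 in WldS. Gene by gene, 2 of the 8 were called higher and 1 lower at day 7 in C57BL/6, with a list median of -0.18. The part of these cells in the Fgf7 differences was not tested.

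Fgf18 is a secreted factor best known from cartilage, bone and lung, and 1449545_at was its one probe set. It read 6.42 and 7.19 in uninjured C57BL/6 nerve, 6.96 and 6.71 at day 3, 6.64 and 6.50 at day 7, and 6.03 and 6.26 at day 14. In WldS it read 6.49 and 6.52, 6.91 and 6.59, 7.14 and 7.43, and 6.20 and 6.33 on the same days. The WldS day 7 pair included the highest array of all, and the uninjured C57BL/6 pair spanned the level of all days 3 and 7 arrays of that strain. The rise in WldS at day 7 was 0.78 ± 0.20 (limma, adjusted p = 0.00893), or 0.64 without the higher day 7 array (adjusted p = 0.0707). The drop from day 7 to day 14 in WldS was -1.02 ± 0.20 (adjusted p = 0.00979), the only member among 8 called in that step, as were 5.23% of all genes. Without WldS day 14 replicate 2 it was -1.08 (adjusted p = 0.0561), without both high-index arrays also -1.08 (adjusted p = 0.0521), and without day 7 replicate 2 it was -0.88 (adjusted p = 0.0836). In C57BL/6 Fgf18 fell by 0.65 at day 14 (adjusted p = 0.0235), a call that rests on uninjured replicate 2: without it the difference was -0.27 (adjusted p = 0.306). Without C57BL/6 day 14 replicate 1 it was -0.54 (adjusted p = 0.159). The day 7 interaction was 1.01 ± 0.29 (adjusted p = 0.0682), so a difference in response between the strains was not called.

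Fgf10, a close relative of Fgf7 known from branching epithelia and fat, lay just above the dim filter. The 8 C57BL/6 arrays of 1420690_at lay between 5.41 and 5.66 and the 8 WldS arrays between 5.44 and 5.83, with the uninjured WldS pair highest at 5.82 and 5.83. Its single call was a fall of 0.34 in WldS at day 7 (limma, adjusted p = 0.0346), which was lost on leaving out any of the 4 arrays of that comparison, with values from -0.38 to -0.30, without both high-index arrays (-0.34, adjusted p = 0.0767), and with the 3′ to 5′ index as a covariate (-0.25). The differences in C57BL/6 were -0.14, -0.11 and -0.17, none called, and none of its interactions was called.

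Fgf2, basic FGF, is a heparin-bound factor with known mitogenic activity on Schwann cells and fibroblasts. Its probe set 1449826_a_at read 6.20 and 5.30 in uninjured C57BL/6 nerve, 4.76 and 4.67 at day 3, 4.71 and 4.75 at day 7, and 4.46 and 4.50 at day 14. In WldS it read 4.71 and 5.21 at day 0 and between 4.53 and 4.72 after crush. Uninjured C57BL/6 nerve was the one group with a mean above the dim filter, and 1 of its 2 arrays lay below it. Any fall may therefore be understated. With no filter on dim genes, the C57BL/6 differences were -1.04, -1.02 and -1.27 (limma, adjusted p = 0.00203, 0.00284 and 0.000660). Without uninjured C57BL/6 replicate 1, the brighter array, they were -0.59, -0.57 and -0.82 (adjusted p = 0.0200, 0.0272 and 0.00435), and without replicate 2 they were -1.49, -1.47 and -1.72, both fits being chosen after seeing the data. The WldS differences were then -0.30, -0.26 and -0.40 (adjusted p = 0.341, 0.403 and 0.258), and the interactions did not pass (adjusted p = 0.230, 0.237 and 0.265).

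In C57BL/6 the differences of the 3 receptors from day 0 were smaller than those of Fgf1 and Fgf5. Fgfr1, the broadly expressed receptor of mesenchymal cells and Schwann cells, was read from 1424050_s_at. It gave 9.71 and 9.53 in uninjured C57BL/6 nerve, 9.70 and 9.87 at day 3, 9.61 and 9.62 at day 7, and 9.48 and 9.14 at day 14. The WldS arrays read 9.26 and 9.36, 9.86 and 9.74, 9.73 and 9.64, and 9.70 and 9.39. Uninjured WldS nerve was lower than each later WldS pair. Its one call was a rise of 0.48 ± 0.14 in WldS at day 3 (limma, adjusted p = 0.0146). That rise was 0.43 without uninjured WldS replicate 1 (adjusted p = 0.0761), 0.43 without both high-index arrays (adjusted p = 0.0555), 0.24 with the index as a covariate (adjusted p = 0.401) and 0.42 without WldS day 3 replicate 1 (adjusted p = 0.106). Differences in C57BL/6 were 0.16, -0.01 and -0.31. The other Fgfr1 probe sets disagreed in direction: 1436551_at gave -0.43, -0.31 and -0.37 in C57BL/6 and -0.30, -0.17 and 0.02 in WldS, while 1425911_a_at gave 0.54, 0.95 and 0.34 in C57BL/6 and 1.20, 1.48 and 0.59 in WldS. No direction for Fgfr1 as a gene follows from them.

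Fgfr2, whose splice forms bind Fgf7 and Fgf10 or Fgf1 and Fgf2, was read from 1433489_s_at. It gave 7.36 and 7.47 in uninjured C57BL/6 nerve, 7.47 and 7.47 at day 3, 7.88 and 7.90 at day 7, and 7.65 and 7.89 at day 14. WldS arrays read 7.51 and 7.64, 7.82 and 7.88, 7.85 and 7.61, and 7.74 and 7.83. In C57BL/6 days 7 and 14 lay above days 0 and 3 with no overlap. The rise was 0.48 ± 0.12 at day 7 (limma, adjusted p = 0.00592), 0.36 ± 0.12 at day 14 (adjusted p = 0.0306) and 0.42 ± 0.12 from day 3 to day 7 (adjusted p = 0.0228). The WldS differences from day 0 were 0.28, 0.16 and 0.21, none called, and the interactions of 0.23, -0.32 and -0.15 were not called either. Without uninjured C57BL/6 replicate 1 the C57BL/6 differences were 0.42 at day 7 (adjusted p = 0.0524) and 0.30 at day 14 (adjusted p = 0.166). The day 14 call was also lost without uninjured replicate 2 (0.42, adjusted p = 0.0511) or day 14 replicate 2 (0.24, adjusted p = 0.253), and the step from day 3 to day 7 without any of its 4 arrays (0.41 to 0.43). A second probe set, 1420847_a_at, differed from day 0 by -0.03, 0.02 and -0.02 in C57BL/6, and with the mean of all Fgfr2 probe sets the differences at days 7 and 14 were 0.16 and 0.068 (adjusted p = 0.161 and 0.576).

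Fgfr3, a receptor known for restraining bone growth, showed no call. Its 16 readings with 1421841_at lay between 5.76 and 6.32, and the day 3 pair of C57BL/6 at 5.85 and 6.32 spanned most of that range. Of 17 comparisons limma called 0, and 0 had an unadjusted p below 0.05. The 95% intervals of the 6 differences from day 0 ran from -0.56 to 0.42, so changes of about that size were not excluded at this precision.

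**Figure D2:**
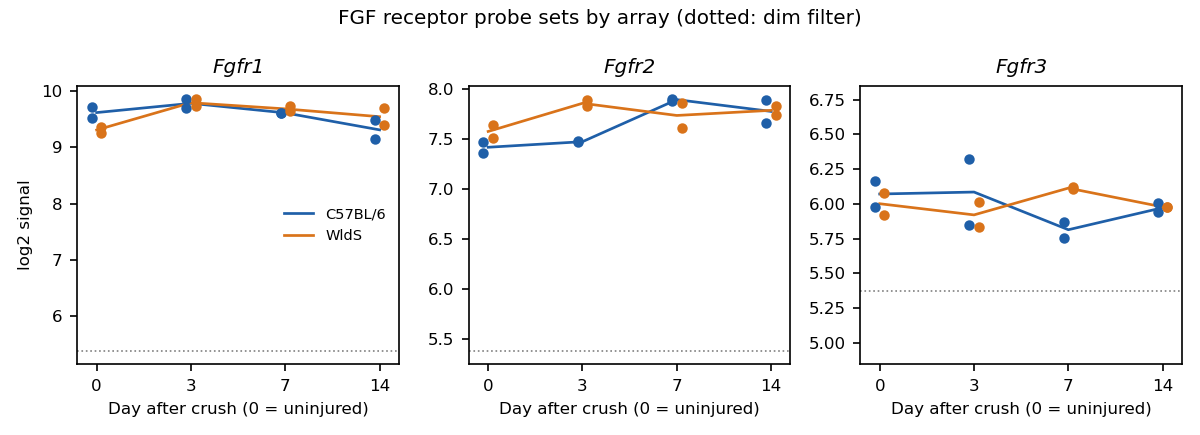
Log2 signal of the 3 receptor probe sets (y axes, 1 scale per panel) against days after crush, with C57BL/6 in blue and WldS in orange; points are arrays, lines join means of 2 arrays and the dotted line is the dim filter. Fgfr2 in C57BL/6 steps from 7.36 to 7.47 before day 7 to 7.65 to 7.90 from day 7 on, while Fgfr3 stays between 5.76 and 6.32.

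**Figure D3:**
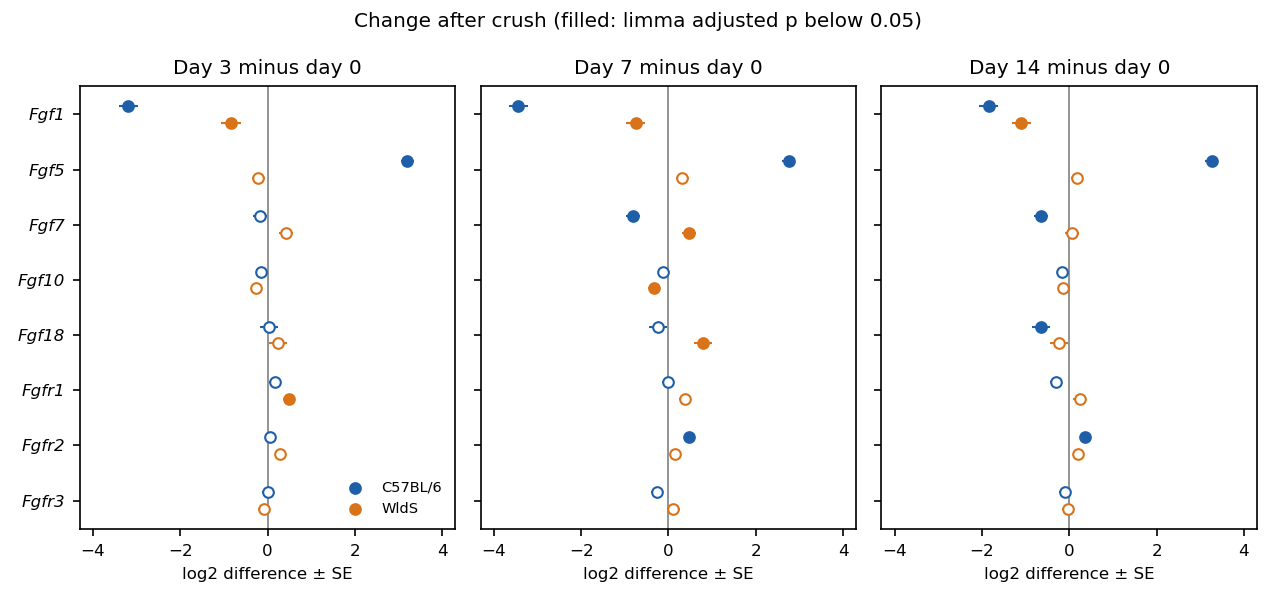
Log2 difference from day 0 with its SE (x axis) for the 8 tested members at days 3, 7 and 14, C57BL/6 in blue and WldS in orange; filled points passed an adjusted p below 0.05 in limma. Fgf5 in C57BL/6, at 3.20, 2.76 and 3.26, and Fgf1 in C57BL/6, at -3.19, -3.44 and -1.85, stand well outside the other values, which lie between -1.09 and 0.78.

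Directly between strains, Fgf5 in WldS differed from C57BL/6 by -3.26 at day 3, -2.29 at day 7 and -2.94 at day 14, and Fgf1 was 1.88 and 2.22 higher in WldS at days 3 and 7 (limma adjusted p at most 6.34e-05 for these 5). Called members numbered 2 of 8 at day 3, when 9.44% of all genes were called, and 1 of 8 at day 14, when 6.46% were. From day 3 to day 7 in WldS 1 of 8 members was called, against 6.62% of all genes.

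The genes whose levels followed each member most closely over the 16 arrays were picked by Pearson correlation, given as a description since all arrays share strains and days. For Fgf1 they were Tmem229a (r = 0.98), Adcy1 (0.98), an adenylyl cyclase, and Prkca (0.98), protein kinase C alpha. For Fgf5 they were Atf3 (0.93), a stress-induced transcription factor, Tmod1 (0.92), which caps actin filaments, and Micall1 (0.91). Group means of Atf3 were 8.94 in uninjured C57BL/6 nerve and 10.93, 10.12 and 10.26 after crush, and 8.72, 9.21, 8.90 and 9.23 in WldS. For Fgf7 they were Sptlc2, Slco3a1 and Foxc2 (0.86, 0.86 and 0.85), and for Fgf18 Tmem100, Adgrg2 and Clec11a (0.84, 0.83 and 0.83). For Fgf10 they were Cog1, Olfr64 and Dhx30 (0.92, 0.89 and 0.88). For the receptors the highest r was 0.85 for Fgfr1 (Mcc, then Fech and Tm4sf1), 0.82 for Fgfr2 (Tmub2, then Ppp2r5c and C2cd5) and 0.73 for Fgfr3 (Emc2, then Klf16 and Heg1).

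The rest of the pathway is given by lists, beside the shares of all tested genes. In C57BL/6, 22.6% of all genes were higher and 18.4% lower at day 3, 19.6% and 16.4% at day 7, and 17.1% and 16.7% at day 14. In WldS these shares were 20.8% and 15.2%, 21.9% and 13.3%, and 12.7% and 8.56%. Where limma gave a list a count of 0 against day 0, the count was also 0 at an unadjusted p below 0.05, except for lower genes in WldS at day 14, where it was 2 adaptors or kinases, 1 heparan sulfate carrier and 2 genes of heparan sulfate synthesis.

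Among 16 other ligands, 7 passed the dim filter. In C57BL/6, 0 were higher and 2 lower at day 3, then 1 lower at day 7 and 1 at day 14, and WldS gave the same counts. Their median change lay between -0.20 and -0.04, against -0.02 to 0.02 over all tested genes in the same 6 comparisons. The genes behind these counts were Fgf4 and Fgf11. The brightest probe set assigned to Fgf4, a factor of the early embryo, read 9.65 and 9.60 in uninjured C57BL/6 nerve and 5.26 and 5.19 at day 3, where it lay below the dim filter. It read 9.30 and 9.47 in uninjured WldS nerve and 7.75 and 7.77 at day 3. The differences were -4.40, -4.26 and -3.62 in C57BL/6 and -1.62, -1.51 and -1.78 in WldS, with interactions of 2.77, 2.76 and 1.85 (limma, adjusted p at most 0.00154). The C57BL/6 mean at day 7 did not exceed the filter either. The first 2 differences in C57BL/6 and their interactions may therefore be understated.

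That probe set and a second that followed it, at -4.93, -4.58 and -3.66 in C57BL/6, come from one expressed sequence tag. The probe set designed from the Fgf4 RefSeq transcript gave -0.36, -0.38 and -0.36 in C57BL/6 and -0.25, -0.20 and 0.00 in WldS. A further one from the tag lay below the filter, at 0.01, 0.07 and -0.04 in C57BL/6. The steep fall is thus a fall of the tag's signal, and these data do not show that Fgf4 RNA fell by that much. Fgf11, an intracellular FGF homologue, was lower at day 3 in both strains, by 0.50 in C57BL/6 and 0.46 in WldS. The first call ended without uninjured C57BL/6 replicate 2 (-0.43) or either day 3 array (-0.47 and -0.53), and the other without uninjured WldS replicate 1 (-0.23) or either day 3 array (-0.41 and -0.50).

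Of 9 other receptors, co-receptors and carriers, 8 were tested. In C57BL/6, 2 were higher and 1 lower at day 3, 2 and 2 at day 7, and 1 and 2 at day 14. In WldS the counts were 0 and 1, 1 and 1, and 1 and 1. List medians lay between -0.23 and -0.09. Flrt3 and Flrt2, membrane proteins with leucine-rich repeats that bind FGF receptors, parted ways. Flrt3 rose by 2.33 ± 0.14 in C57BL/6 at day 7 and 0.61 ± 0.14 in WldS, with an interaction of -1.72 ± 0.20 (limma, adjusted p = 0.000195), and at day 14 the rises were 1.36 and 1.31. A second Flrt3 probe set gave 2.43 and 0.54 at day 7. Flrt2 fell by 1.24, 1.21 and 1.63 in C57BL/6, while its WldS differences were 0.05, -0.37 and -0.69, the last called. The day 3 interaction of Flrt2 was 1.29 ± 0.25 (adjusted p = 0.00599). The day 14 call of Flrt2 in WldS ended without uninjured replicate 2 (-0.63), day 14 replicate 2 (-0.55) or both high-index arrays (-0.61).

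Fgfbp3, a secreted carrier that frees FGFs from the matrix, rose in C57BL/6 at day 3, from 5.67 and 5.50 to 7.22 and 7.42. Its WldS readings at day 3 were 5.10 and 5.34, below the filter. The difference was 1.73 ± 0.13 in C57BL/6 and -0.31 in WldS, with an interaction of -2.04 ± 0.18 (limma, adjusted p = 7.24e-06), and by day 14 it was 0.16 in C57BL/6. Fgfbp3 thus peaked at day 3, when Fgf5 was already near its highest level. Fgfrl1, an FGF receptor without a kinase domain, fell by 0.58 in WldS at day 3. At day 7 the Klotho co-receptors of endocrine FGFs, both near the dim filter, fell: Kl by 0.51 in C57BL/6 and Klb by 0.46 in WldS. The Kl call ended without uninjured C57BL/6 replicate 1 (-0.42) or day 7 replicate 1 (-0.40), and the Klb call without uninjured WldS replicate 1 or both high-index arrays (-0.31 each) or day 7 replicate 2 (-0.38). Second probe sets of Kl and Klb lay below the filter.

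All 14 measured adaptors and kinases were tested. In C57BL/6, 4 were higher and 2 lower at day 3, 4 and 2 at day 7, and 4 and 1 at day 14. In WldS the counts were 2 and 2, 2 and 1, and 1 and 0, and list medians ran from 0.03 to 0.20. Grb2, the adaptor that recruits SOS, rose by 0.55, 0.77 and 0.81 in C57BL/6, and its second probe set gave 1.10, 0.81 and 0.69. Crk, another SH2 adaptor, rose by 0.58, 0.73 and 0.71 in C57BL/6 and by 0.92 in WldS at day 7. Its other probe sets disagreed in direction, at 0.50, 0.80, -0.25 and -0.23 in C57BL/6 at day 3. In WldS at day 7 they gave 0.85, 0.46, 0.24 and -0.09. Shc1 rose by 0.55 in C57BL/6 and 0.47 in WldS at day 7, where its second probe set gave 0.34 and -0.01. Map2k1, a MAP kinase kinase, rose by 0.59 in WldS at day 3. Nras rose by 0.82 and 0.84 at days 7 and 14 in C57BL/6. Gab1, a docking protein, fell by 1.55, 0.94 and 0.60 in C57BL/6 and by 0.54 in WldS at day 3. But the dimmest of its 3 probe sets gave 0.42 and 0.63 at days 7 and 14 in C57BL/6. For WldS at day 3 the other Gab1 probe sets gave -0.07 and 0.33. Several of these calls rested on single arrays. Without uninjured C57BL/6 replicate 1, the calls of Crk (0.51, 0.66 and 0.64), of Nras (0.69 and 0.71), of Grb2 at day 3 (0.52) and of Gab1 at day 14 (-0.44) ended. In C57BL/6, Crk also lost its call without day 3 replicate 2 (0.30), uninjured replicate 2 (0.65 at day 3), day 7 replicate 2 (0.49) or day 14 replicate 1 (0.55), and Grb2 without day 3 replicate 2 (0.43). Nras lost its call without day 7 replicate 1 (0.75) or either day 14 array (0.87 and 0.80), and Gab1 without day 14 replicate 1 (-0.56). In WldS, the Map2k1 rise ended without uninjured replicate 1 or both high-index arrays (0.36 each) or either day 3 array (0.54 and 0.64). The Gab1 fall ended without uninjured replicate 2 (-0.29) or either day 3 array (-0.56 and -0.53), and the Shc1 rise without day 7 replicate 1 (0.40).

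Of 11 feedback inhibitors, 10 were tested. In C57BL/6, 4 were higher and 2 lower at day 3, 3 and 1 at day 7, and 2 and 1 at day 14. In WldS the counts were 2 and 1, 3 and 0, and 4 and 0, and list medians ran from -0.04 to 0.31. Dusp6, the phosphatase that switches off ERK, rose in every comparison: by 1.23, 2.18 and 1.70 in C57BL/6 and by 1.04, 1.56 and 1.95 in WldS, with an SE of 0.26. None of its interactions was called. Spred1 rose by 1.09, 0.83 and 0.60 in C57BL/6 and by 0.50, 0.81 and 0.94 in WldS. Dusp4 rose by 0.93 at day 7 in C57BL/6 and by 1.18 at day 14 in WldS, and Spred2 by 0.50 at day 7 in WldS. The other Spred2 probe sets disagreed in direction in WldS at day 7, at 0.40, -0.04, -0.24 and 0.22. The Dusp4 rise was 0.60 and not called without uninjured C57BL/6 replicate 2. In WldS it was 0.72 without uninjured replicate 1, the array with the highest index, and 0.76 and not called without both high-index arrays. The Spred2 rise was 0.30 and not called without that array or without both, and 0.36 and not called without day 7 replicate 2. In WldS without uninjured replicate 2, Spred1 differed by 0.18, 0.49 and 0.62, the first not called, and without replicate 1 by 0.83 at day 3. Its day 3 call in WldS also ended without either day 3 array (0.56 and 0.44), its day 14 call in C57BL/6 without uninjured replicate 1 (0.59) or day 14 replicate 1 (0.57), and the Dusp6 call in WldS at day 3 without replicate 2 of that day (0.85). Spry1, a Sprouty inhibitor induced by FGF signalling in many tissues, went the other way, with C57BL/6 differences of -0.99, -0.98 and -1.01. Its uninjured WldS arrays lay at 9.57 and 10.36, the lower being a high-index array, and its WldS differences of -0.23, 0.01 and -0.35 were not called. The interactions of Spry1 were not called.

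Of 7 transcription targets, all 6 measured were tested, and limma called 0 lower in either strain. In C57BL/6 4, 4 and 3 rose at days 3, 7 and 14, and in WldS 2, 4 and 4. List medians ran from 0.41 to 1.04. Ccnd1, cyclin D1, rose by 1.44, 2.71 and 1.91 in C57BL/6 and by 0.72, 1.70 and 2.01 in WldS, with a day 7 interaction of -1.01 ± 0.23 (limma, adjusted p = 0.0250). That interaction was lost without any of 6 single arrays, with values from -1.04 to -0.76, and without both high-index arrays (-0.90). Fosl1, a FOS-family factor, read 8.56 and 7.62 at day 3 in C57BL/6 against 5.41 and 5.29 at day 0, a rise of 2.74. Its day 0 mean lay just below the filter, so the rise may be understated. Its WldS readings stayed between 5.17 and 6.02, and the day 3 interaction was -2.46 ± 0.34 (adjusted p = 0.000491). A second Fosl1 probe set gave 0.30 at day 3 in C57BL/6. Myc rose by 1.35 and 0.85 at day 3 in C57BL/6 and WldS, and Egr1 by 0.92 and 0.70 at day 14. In C57BL/6 the Egr1 rise was 0.43 and not called without uninjured replicate 2, and 1.42 without replicate 1. In WldS it was not called without any of its 4 arrays (0.62 to 0.78) or without both high-index arrays (0.60), nor without any 1 of the arrays of C57BL/6 days 3, 7 and 14 or of WldS day 3. Etv5, an ETS factor often used as a readout of FGF signalling, rose by 0.79 at day 7 in C57BL/6 and by 1.05 in WldS. The first call ended without any of its 4 arrays (0.72 to 0.86). The second was 0.55 without uninjured WldS replicate 1 (adjusted p = 0.0532) and 0.55 without both high-index arrays (adjusted p = 0.0297), and the other Etv5 probe sets gave 0.34 and -0.26 there. Many other receptors act on these genes too, and proliferation marker sums were higher after crush in both strains; their part was not tested.

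**Figure D4:**
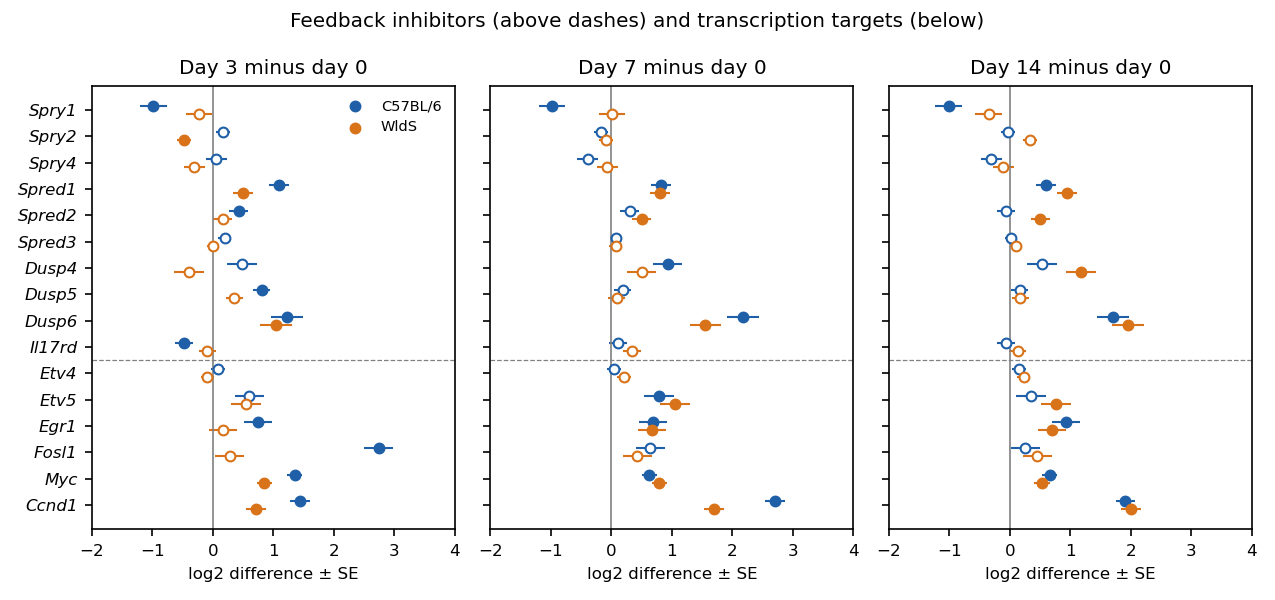
Log2 difference from day 0 with its SE (x axis) for 10 feedback inhibitors (above the dashed line) and 6 transcription targets (below it) at days 3, 7 and 14, C57BL/6 in blue and WldS in orange; filled points passed an adjusted p below 0.05 in limma. Dusp6 and Ccnd1 lie to the right of 0 in both strains on each day, while Spry1 in C57BL/6 lies at -0.99, -0.98 and -1.01.

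Of the 12 heparan sulfate carriers, the cell-surface and matrix proteins whose sugar chains FGFs need for binding, 10 were tested. In C57BL/6, 1 was higher and 4 lower at day 3, 1 and 1 at day 7, and 2 and 2 at day 14. In WldS the counts were 1 and 1, 2 and 0, and 2 and 0, and list medians ran from -0.14 to 0.37. Gpc1, a glypican, read 8.85 and 8.73 in uninjured C57BL/6 nerve and 10.93 and 10.84 at day 3, a rise of 2.10 ± 0.13. In WldS it read 8.75 and 8.87 at day 0 and 8.83 and 9.18 at day 3, with an interaction of -1.90 ± 0.19 (limma, adjusted p = 2.28e-05). It rose by 0.84 in WldS at day 14. Gpc3 fell by 1.59 at day 3 in C57BL/6 and 0.53 in WldS, with an interaction of 1.07 ± 0.26 (adjusted p = 0.0273), and Gpc6 fell by 1.49 in C57BL/6, a direction that all 5 of its probe sets shared. Sdc2 fell by 1.10 at day 3 in C57BL/6, although 1 of its 4 probe sets gave 0.17. Sdc3 rose by 1.29 in WldS at day 3 and Sdc1 by 1.16 at day 7, but other probe sets of Sdc3 gave -0.03 and 0.44 and others of Sdc1 0.00, 0.27 and -0.19. The Gpc3 fall in WldS was -0.34 and not called without uninjured replicate 2, and its call ended without either day 3 array (-0.51 and -0.54) or any of 6 arrays of other groups. The Gpc3 interaction ended without any of 6 single arrays (0.89 to 1.08) or both high-index arrays (0.89), and the Sdc1 rise without day 7 replicate 1 (0.87).

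Of 15 measured genes of heparan sulfate synthesis and editing, 13 were tested. In C57BL/6, 6 were higher and 0 lower at day 3, 3 and 0 at day 7, and 3 and 3 at day 14. In WldS 7, 9 and 2 were higher and 0 lower, and list medians ran from -0.08 to 0.46. Hpse, the heparanase that cleaves the chains, read 8.14 and 8.38 in uninjured C57BL/6 nerve and rose by 1.59, 2.42 and 2.25. In WldS it rose by 2.13, 1.50 and 0.88, so that the day 14 interaction was -1.37 ± 0.24 (limma, adjusted p = 0.0129). That interaction was not called without uninjured C57BL/6 replicate 1 (-1.25), C57BL/6 day 14 replicate 2 (-1.10), WldS day 14 replicate 1 (-1.30) or both high-index arrays (-1.45), and the WldS rise at day 14 was 0.80 and not called without the last. Macrophage marker sums were 16630 to 18150 in C57BL/6 and 12040 to 12990 in WldS at day 14, and their part in this difference was not tested. Hs6st2, a 6-O-sulfotransferase, rose by 1.25 in WldS at day 7, where the interaction was 1.25 ± 0.24 (adjusted p = 0.0101), and fell by 1.09 in C57BL/6 at day 14. The interaction was not called without uninjured C57BL/6 replicate 1 (1.07) or C57BL/6 day 7 replicate 2 (1.21). Its other probe sets were dim, and 1 of 3 passed the filter. Ext1, a chain polymerase, rose by 0.85 in C57BL/6 and 1.28 in WldS at day 3 and by 1.29 in WldS at day 7, where its second probe set gave 0.03, 0.13 and 0.08. Glce rose by 0.80 in WldS at day 7, where its other probe sets gave 0.04 and -0.078. Hs2st1 rose by 0.72 in C57BL/6 at day 7, where its other probe sets gave -0.11, 1.01 and 0.41.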

How the data were processed

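RNA from 8 groups (2 strains, days 0, 3, 7 and 14, with 2 arrays each) was measured on a whole-genome array from 10 micrograms of total RNA per the labels. The deposited table holds log2 expression values for 45101 probe sets, already normalized by the authors. Of the software, RMA, GCOS 1.4, Partek and limma are listed, with no role stated, per the submitters' processing notes. Scanner files were not used here, so background and saturation per probe could not be checked, and values of different probe sets were not compared. The number of arrays limits the precision.

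After removing 64 control probe sets, 34945 had 1 gene symbol in the platform annotation, 932 several and 9160 none. Genes were fitted together in limma 3.58.1 (R 4.3.3) on the values as deposited, with 1 mean per group over all 16 arrays, 17 comparisons and Benjamini-Hochberg adjustment within each over 14545 genes. The fit had 8 residual degrees of freedom. The fit was tested on simulated data in which 50 genes changed at each size, in C57BL/6 at day 3 alone. For C57BL/6 day 3 against day 0, 36% of changes of 0.5 and 88% of changes of 1 (log2) were called, over 14545 genes. For the day 3 interaction 8% and 68% were called. In the real comparison with day 0, 41% of genes were called. The adjusted threshold was therefore stricter on the simulated data, and these shares do not carry over to the real comparisons.

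The text names all 9 members, up to 4 called genes with the largest change per pathway list and strain, other FGF ligands or receptors called, and for each tested member the 3 genes of highest correlation. The members, gene lists and markers were chosen with earlier results of these data known. Some genes of the lists are not reported here. Alternatives covered the normalization between arrays, the dim filter, the choice of probe set, the prior, the arrays in the fit, the replicate number and the 3′ to 5′ index, and leaving out each array and both high-index arrays. Replicate numbers did not pair the arrays: of 28 pairs of groups, 5 had deviations that correlated above 0.1. The correlations ran from -0.58 to 0.19, with a median of 0.0058. This check bears on the numbering alone and not on whether deviations were shared between arrays of different numbers.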

Additional observations from a re-analysis of the deposited data

Results flagged for a closer look

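For 3 members the change after crush differed between the strains by limma's interaction test, the WldS change minus the C57BL/6 change, 2 arrays per group. Fgf1 differed by 2.36 at day 3 and 2.69 at day 7 on the log2 scale. Fgf5 differed by -3.41 at day 3, -2.44 at day 7 and -3.08 at day 14. Fgf7 differed by 1.28 at day 7. Fgf5 rested on 1 of its 2 probe sets, Fgf1 was seen with 2 of 3, and the second Fgf7 probe set missed the threshold.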

How the results depend on the processing

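Of 36 called results of the members, 19 kept direction and threshold under all 28 alternatives chosen with the design. These include the differences of Fgf1 and Fgf5 from day 0 in C57BL/6 and their called interactions, although every Fgf5 call ended with its dim second probe set. Of 100 results not called, 14 were called under at least 1. In 115 of 3876 comparisons of a member result with an alternative the sign differed while neither passed. With 2 arrays per group, changes of about 0.5 were often missed on simulated data, in which far fewer genes changed than were called here.

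The replicate block, with the replicate number as a term, gave 2 called members from day 7 to day 14 in C57BL/6 (1 without it) and moved no other count of members by over 1.5 times. Numbers of called members, as the value under the alternative, otherwise moved as follows, and the cause was not tested. From day 7 to day 14 in C57BL/6 there were 2 with the 3′ to 5′ index as a covariate or without both high-index arrays and 3 with only the compared groups fitted, and from day 3 to day 7 there was 1 with the mean of all probe sets. In WldS day 14 against day 0 there were 0 with the groups alone and 2 with the most variable probe set. At day 3 there was 1, and at day 7 there were 2, with the covariate or without both arrays. At day 7 there were also 2 under cyclic loess and under quantile normalization, and 1 with the groups alone. From day 3 to day 7 in WldS there were 0 with the groups alone, the mean, median centring or the most variable probe set. From day 7 to day 14 there were 0 without both arrays and 2 with the mean or the most variable probe set. Between the strains at day 14 there were 2 with the covariate, without both arrays and with the most variable probe set.

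On leaving out 1 array, called members ranged from 3 to 5 in C57BL/6 at day 14, 0 to 3 from day 3 to day 7 and 1 to 2 from day 7 to day 14. In WldS they ranged from 0 to 3 at day 3, 0 to 5 at day 7, 0 to 1 from day 3 to day 7 and 0 to 2 from day 7 to day 14, and between strains at day 0 from 0 to 1.

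Signs turned mainly with the probe set. With the next brightest, an alternative chosen after seeing the data, Fgf5 in WldS from day 3 to day 7 was -0.058, Fgfr1 at day 3 was -0.43 in C57BL/6 and -0.30 in WldS, and Fgfr2 in C57BL/6 at day 14 was -0.020. Fgf7 in WldS was -0.031 at day 7 and -0.62 at day 14 with both the next brightest and the most variable. With the most variable, Fgfr1 in C57BL/6 at day 7 was 0.95. Gab1 was then 0.42 and 0.63 in C57BL/6 at days 7 and 14, and 0.33 and 0.92 in WldS at days 3 and 7. Sdc2 was 0.17 in C57BL/6 at day 3, and 1.00 and 0.82 in WldS at days 3 and 7. Gpc6 in WldS at day 7 was -0.48 and Spred2 in C57BL/6 at day 14 was 0.59. With the mean, Gab1 and Sdc2 in WldS at day 7 were 0.20 and 0.32. With the covariate, Spry1 in WldS at day 7 was -0.58.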
